A study of Homo sapiens with 41 samples.

Results

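The class 3 semaphorins SEMA3A, SEMA3B, SEMA3C, SEMA3D, SEMA3E and SEMA3F and their receptors NRP1 and NRP2 were followed across 16 groups of human cells that differed in line, hairpin and condition. These 8 genes were found by matching the Ensembl identifiers of the count files to symbols, and they are 8 of 58735 genes counted, of which 58207 carried a symbol. Class 3 semaphorins are secreted proteins, first known as repellents of growing axons, that also act on vessels, immune cells and tumours. Most of them bind a neuropilin, a co-receptor with a short cytoplasmic tail, and signal through a plexin that the neuropilin holds, while SEMA3E binds plexin-D1 directly. Neuropilins also bind growth factors of the VEGF family, and neuropilin-1 has been described in hepatic stellate cells as a co-receptor for PDGF and TGFbeta signals. The family was chosen by name, with earlier results of these data known, and selected on 1 measured value, the low SEMA3A level of TGFbeta-treated shCtrl LX-2 cells. That fall is described here and not tested. Its baseline, SEMA3A in the shCtrl DMSO libraries, also serves in other SEMA3A comparisons, whose p-values do not allow for this. SEMA3G, the remaining class 3 member, had at most 8 counts in any library and is not described further.

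LX-2 is a human hepatic stellate cell line; stellate cells lay down the matrix of a scarred liver. HMLE cells are human mammary epithelial cells that were immortalised. Cells carried a hairpin against the stress response factor ATF4 (shATF4) or a control hairpin (shCtrl). LX-2 cells were given TGFbeta, a cytokine that activates stellate cells, or thapsigargin (labelled Tg), an inhibitor of the calcium pump of the endoplasmic reticulum, or the condition labelled AA_Dep, or DMSO. HMLE cells had thapsigargin, AA_Dep and DMSO as well, and Twist_OE, overexpression of the mesenchymal transcription factor Twist, in place of TGFbeta. Whether cells given TGFbeta or AA_Dep also had DMSO is not said in the labels. Vehicle therefore cannot be told apart from these conditions. All cells of both lines carried a hairpin, 1 name is given for each hairpin, and the labels give no dose or duration and do not say that the 2 replicates of a group were separate cultures, so that p-values measure the spread between these samples, which may be technical. In bulk RNA, fewer cells with a transcript and less transcript per cell cannot be told apart.

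Total counts per LX-2 library ran from 14551191 to 18776430, and those per HMLE library from 15956909 to 23243132. The HMLE shATF4 AA_Dep files were identical and entered as 1 library, which leaves 31 libraries. LX-2 shCtrl thapsigargin replicate 2 had a count for 15840 genes, where the rest of that line had 22912 to 24255, and a correlation of 0.802 with its replicate, and LX-2 results are from the 15 libraries without it. Its own values and the fit with all 16 libraries are given where they change a result. ATF4 itself was lower in shATF4 than in shCtrl cells in all 8 comparisons, with log2 changes from -2.78 to -0.91. In DMSO it averaged 127 ± 9.88 CPM (counts scaled to the library total) in shATF4 and 235 ± 13.6 CPM in shCtrl LX-2 cells, and 122 ± 3.63 and 444 ± 14.9 CPM in shATF4 and shCtrl HMLE cells (SD, n = 2 each). Of 12 stellate and mesenchymal markers 9 averaged over 1 CPM across the LX-2 libraries, the others being HGF, DES and LRAT, with DES and LRAT at a median of 0, and all 10 mammary epithelial markers did so in HMLE, against 2 of 10 (KRT18 and LAMB3) in LX-2. In HMLE the stellate and mesenchymal markers COL1A1, COL6A3, VIM, ACTA2, LRAT and THY1 had medians from 1.81 to 16.3 CPM, and the rest of that list had medians under 1 CPM. LRAT ran against the lines' names, with a median of 14.6 CPM in HMLE.

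Levels are CPM, and log2 changes with their SE come from edgeR's quasi-likelihood test across all genes, with Benjamini-Hochberg adjusted p-values and 0.05 as threshold. Transcript length was not used, so levels of different genes are not compared. All 8 genes passed the filter on low counts in both lines. SEMA3E was the sparse one in LX-2, with 0 to 31 counts per library and a median of 0.349 CPM, and 1 library, the discordant one, was at 0. Its counts were 23 to 31 in the LX-2 DMSO libraries and 0 to 15 in the other LX-2 libraries, so that it passed the filter mainly through DMSO. Its falls from DMSO in LX-2 are therefore given as a description, also where a count of the genes that passed includes it. SEMA3E, SEMA3A and SEMA3D follow each other as coding genes on chromosome 7, SEMA3C lies elsewhere on the same chromosome, SEMA3B and SEMA3F lie on chromosome 3, NRP1 on chromosome 10 and NRP2 on chromosome 2. SEMA3B and SEMA3F overlap the antisense genes SEMA3B-AS1 and SEMA3F-AS1, and since the strand setting of the counting is not given in the sources used here, reads of such a pair cannot be told apart.

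**Figure D1:**
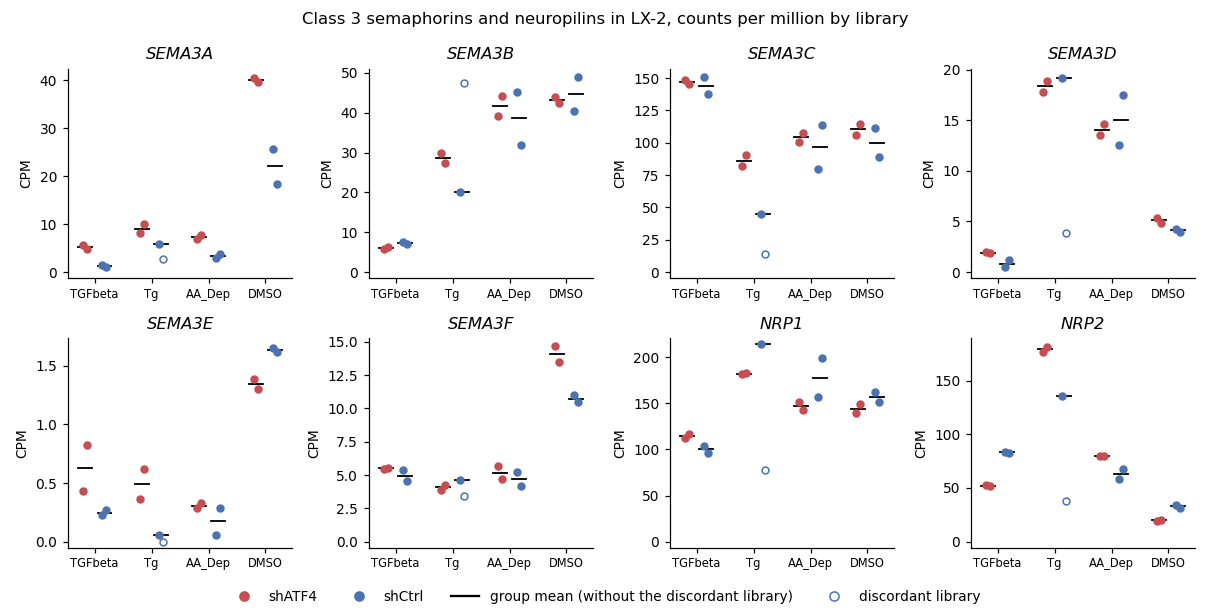
Level of each of the 8 genes in LX-2 libraries, in CPM (vertical axis, own scale per panel), by condition with shATF4 left of shCtrl; points are libraries, black lines group means, and the open circle is the discordant library, which is not in the mean. SEMA3A, SEMA3E and SEMA3F had their highest libraries in DMSO, and NRP2 its highest in thapsigargin.

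**Figure D2:**
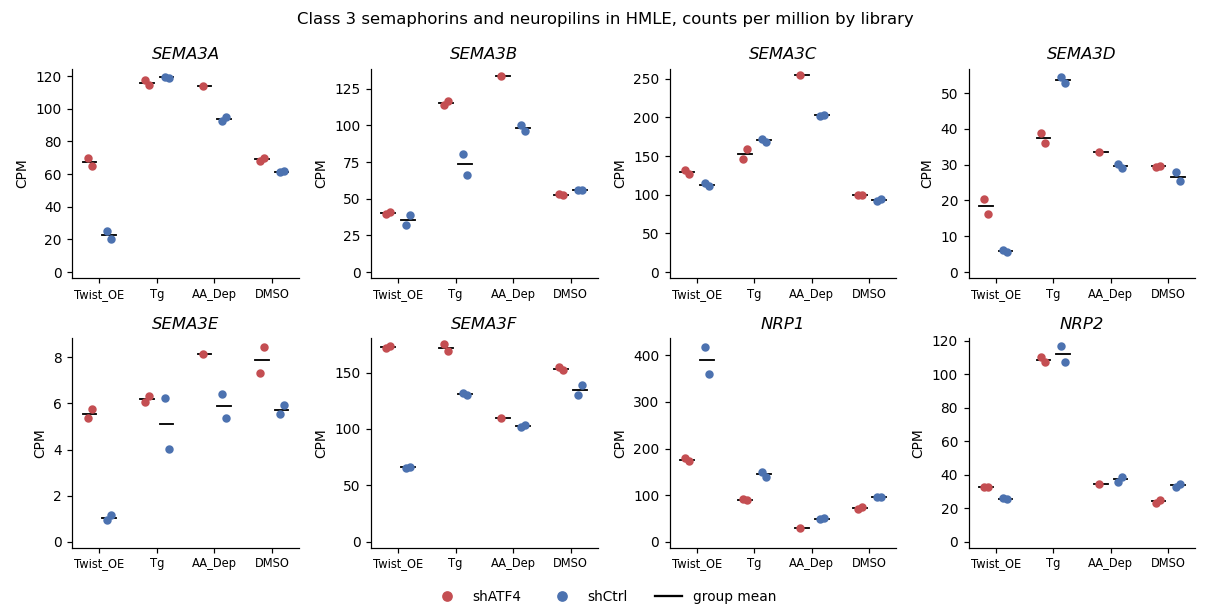
Level of each of the 8 genes in HMLE libraries, in CPM (vertical axis, own scale per panel), by condition with shATF4 left of shCtrl; points are libraries and black lines group means, and shATF4 AA_Dep has 1 library. In shCtrl cells with Twist_OE, NRP1 stood at 418 and 361 CPM, above all other HMLE libraries, and SEMA3A, SEMA3D, SEMA3E and SEMA3F below all others.

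The stretches of 250 bases before the annotated transcript starts are shown for 4 of the ligands because these genes gave the results that follow: SEMA3C and SEMA3D under stress in LX-2, and SEMA3E and SEMA3F under Twist_OE. They come from RefSeq's annotation of GRCh38.p14, in which 6 of the 8 genes matched with 14 start sites. NRP1 and SEMA3A have no entry in the table used. Capitals mark motif matches on either strand of the C/EBP-ATF response element (TGATGNAAN) in SEMA3C and of the E-box (CANNTG), the motif of Twist and other basic helix-loop-helix factors, in the others.
SEMA3C, chr7:80922390-80922639, minus strand: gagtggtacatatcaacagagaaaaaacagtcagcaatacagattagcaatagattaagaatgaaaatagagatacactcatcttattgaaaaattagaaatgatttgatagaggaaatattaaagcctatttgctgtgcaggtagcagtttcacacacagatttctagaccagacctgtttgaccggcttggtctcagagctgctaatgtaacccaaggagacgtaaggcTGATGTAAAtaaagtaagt
SEMA3D, chr7:85187057-85187306, minus strand: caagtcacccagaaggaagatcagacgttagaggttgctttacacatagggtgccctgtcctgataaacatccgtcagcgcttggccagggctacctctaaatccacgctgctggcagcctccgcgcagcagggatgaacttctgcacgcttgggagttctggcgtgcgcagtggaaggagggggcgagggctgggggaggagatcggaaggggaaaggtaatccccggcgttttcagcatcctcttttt
SEMA3E, chr7:83649140-83649389, minus strand: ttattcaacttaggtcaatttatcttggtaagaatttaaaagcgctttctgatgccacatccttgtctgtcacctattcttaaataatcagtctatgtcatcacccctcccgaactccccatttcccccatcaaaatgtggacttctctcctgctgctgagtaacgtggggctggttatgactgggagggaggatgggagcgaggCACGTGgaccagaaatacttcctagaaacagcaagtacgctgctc
SEMA3F, chr3:50154808-50155057, plus strand: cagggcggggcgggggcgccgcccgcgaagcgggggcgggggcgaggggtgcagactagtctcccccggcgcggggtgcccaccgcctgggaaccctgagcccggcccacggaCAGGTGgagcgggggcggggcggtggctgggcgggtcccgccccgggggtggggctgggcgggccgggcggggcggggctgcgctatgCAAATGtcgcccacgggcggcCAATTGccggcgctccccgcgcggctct
The SEMA3C match lay 19 bases before the start, and 3.13% of 35116 start-site stretches of the same length in the annotation hold that motif. SEMA3E had 1 E-box and SEMA3F 3, while SEMA3D had none in this stretch, and 61.8% of all stretches hold at least 1. E-boxes also lay before the other start of SEMA3F, 4 starts of SEMA3B and the start of NRP2. The TWIST E-box (CATNTG, in 29.75% of stretches), whose matches are all E-boxes too, matched once before 1 start of SEMA3F (49 bases before it), 3 of SEMA3B, 2 of which share the site, and that of NRP2, and in neither stretch of SEMA3E. The SEMA3F stretch was 82% G and C against 36.4% in SEMA3C. Of the other motifs searched, the UPR element core (TGACGTG, in 1.68% of stretches) matched once before 1 start of SEMA3B, and a CRE (TGACGTCA, in 1.65%) once before another of its starts, 31 bases before that start. The AP-1 site (TGANTCA, in 6.57%), the SMAD box (GTCTAGAC, in 0.182%) and the ER stress response element (in 0.074%) matched in none of the 14. These are letter matches only, and binding was not measured here.

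In shCtrl cells given DMSO the ligands SEMA3A, SEMA3D, SEMA3E and SEMA3F differed more between the lines than either receptor. SEMA3B and SEMA3C did not. Line cannot be told apart here from a batch that differed with it. SEMA3F, a ligand that prefers neuropilin-2, had 11 and 10.5 CPM in LX-2 against 130.2 and 139 CPM in HMLE (log2 change -3.84, SE 0.09, adjusted p = 6.1e-23). SEMA3D, which patterns vessels in the mouse, had 4.27 and 3.95 CPM in LX-2 against 27.9 and 25.3 CPM in HMLE (log2 change -2.89, SE 0.16, adjusted p = 9.7e-15). The LX-2 and HMLE libraries of both genes lay far apart. SEMA3E, the plexin-D1 ligand, had 1.66 and 1.62 CPM in LX-2 against 5.56 and 5.92 CPM in HMLE (log2 change -1.99, SE 0.25, adjusted p = 6.7e-08). SEMA3A, the founding axon repellent of the class and a neuropilin-1 ligand, had 25.7 and 18.3 CPM in LX-2 against 61.3 and 61.7 CPM in HMLE (log2 change -1.67, SE 0.12, adjusted p = 2e-12). SEMA3B was lower in LX-2 by a smaller step (log2 change -0.52, adjusted p = 0.00043), and SEMA3C, at 111 and 88.8 CPM in LX-2 and 91.9 and 94.5 CPM in HMLE, did not pass the test. Of the receptors, NRP1 was higher in LX-2, with 163 and 152 CPM against 95.8 and 95.9 CPM in HMLE (log2 change 0.52). NRP2, with 34.3 and 31.3 CPM in LX-2 against 32.9 and 34.5 CPM in HMLE, overlapped between the lines, and its log2 change of -0.23 passed the test with the normalisation used (adjusted p = 0.014) but not with DESeq2 (0.071). In all, 7 of the 8 genes passed, 1 higher and 6 lower in LX-2, where 70.4% (35.9% higher and 34.5% lower) of 20308 genes tested did. With the discordant library included, the adjusted p-values were 0.22 for SEMA3B and 0.39 for NRP2. With 1 library left out, NRP2 had adjusted p = 0.089 without HMLE shCtrl DMSO replicate 2 and 0.14 without LX-2 shCtrl DMSO replicate 2.

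TGFbeta was set against DMSO in LX-2 to ask how these genes behave when stellate cells are activated, and most of the ligands were lower while NRP2 was higher. In shATF4 cells 6 of 8 genes passed the test, 2 higher and 4 lower, where 27.6% (13.5% higher and 14.1% lower) of all 18649 genes tested did. In shCtrl cells all 7 genes tested passed, 2 higher and 5 lower, where 22.1% (11.1% higher and 11% lower) of all genes did. The 5 lower include SEMA3E, whose fall is a description. SEMA3B, a candidate tumour suppressor of the short arm of chromosome 3, had 5.81 and 6.32 CPM under TGFbeta against 44.0 and 42.5 CPM in DMSO in shATF4 cells (log2 change -2.70, SE 0.17, adjusted p = 1.2e-08). With the shCtrl hairpin it had 7.58 and 6.92 CPM under TGFbeta against 40.5 and 48.9 CPM in DMSO (log2 change -2.50, SE 0.17, adjusted p = 1.8e-08). No TGFbeta library of either hairpin came near a DMSO library.

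SEMA3A stood at 5.54 and 4.78 CPM under TGFbeta against 40.4 and 39.6 CPM in DMSO in shATF4 cells (log2 change -2.83, SE 0.19, adjusted p = 2.9e-08). In shCtrl cells, where the fall was known beforehand, it stood at 1.57 and 0.959 CPM under TGFbeta against 25.7 and 18.3 CPM in DMSO, a log2 change of -3.99 with SE 0.24. Under TGFbeta the shATF4 libraries were thus both above the shCtrl libraries, by 2.02 on the log2 scale (SE 0.27), and they were above them in DMSO too. The next gene on the chromosome, SEMA3D, had 1.99 and 1.87 CPM under TGFbeta against 5.31 and 4.89 CPM in DMSO in shATF4 cells (log2 change -1.27, SE 0.25, adjusted p = 0.0013). In shCtrl cells SEMA3D had 0.505 and 1.17 CPM under TGFbeta against 4.27 and 3.95 CPM in DMSO (log2 change -2.14, SE 0.29, adjusted p = 5.6e-05). SEMA3F fell in both hairpins, to 5.48 and 5.50 CPM in shATF4 cells (log2 change -1.23) and to 5.39 and 4.53 CPM in shCtrl cells (log2 change -0.99), against 10.5 to 14.7 CPM in the 4 DMSO libraries. SEMA3E had 23 counts under TGFbeta against 47 in DMSO over both shATF4 libraries, which did not pass the test (adjusted p = 0.16), and 9 against 61 counts in shCtrl cells (log2 change -2.58, SE 0.55, adjusted p = 0.0031). Both SEMA3E falls are a description, since it passed the filter mainly through DMSO, and its p-values support nothing. The SEMA3E count ratio, scaled by library totals, was 0.150 in shCtrl cells, with an exact 95% interval from 0.0655 to 0.304 that covers counting error only.

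SEMA3C, a ligand of both neuropilins that is needed for septation of the cardiac outflow tract in the mouse, was the ligand that was higher under TGFbeta. It had 149 and 145 CPM against 106 and 114 CPM in DMSO in shATF4 cells (log2 change 0.54, SE 0.13, adjusted p = 0.0068). With shCtrl the levels were 151 and 137 CPM against 111 and 88.8 CPM in DMSO (log2 change 0.65, SE 0.13, adjusted p = 0.0022). TGFbeta and DMSO libraries did not overlap in either hairpin. With the discordant library in the fit, a library of neither compared group, the spread shared by all groups was larger and SEMA3C had adjusted p-values of 0.41 in shATF4 and 0.31 in shCtrl cells. In that fit SEMA3D in shATF4 cells had 0.21, SEMA3E in shCtrl cells just over 0.05 and NRP1 in shCtrl cells 0.27, while the falls of SEMA3B and SEMA3F and the rise of NRP2 kept their calls in both hairpins. When 1 library was left out, SEMA3C in shATF4 cells had adjusted p = 0.074 without shATF4 DMSO replicate 1.

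The receptors went opposite ways under TGFbeta in shCtrl cells. NRP2, the co-receptor of SEMA3F and of the lymphatic growth factor VEGFC, had 52.7 and 51.6 CPM under TGFbeta against 19.1 and 20.3 CPM in DMSO in shATF4 cells (log2 change 1.53, SE 0.09, adjusted p = 1.1e-08). In the shCtrl hairpin it had 83.7 and 82.6 CPM against 34.3 and 31.3 CPM in DMSO (log2 change 1.47, SE 0.09, adjusted p = 7.2e-09). NRP1, the co-receptor of SEMA3A and of VEGFA, had 113 and 117 CPM under TGFbeta against 139.7 and 149 CPM in DMSO in shATF4 cells, which did not pass the test (log2 change -0.20, SE 0.10, adjusted p = 0.14). In shCtrl cells NRP1 had 104 and 96.6 CPM under TGFbeta against 163 and 152 CPM in DMSO (log2 change -0.52, SE 0.10, adjusted p = 0.0011). None of the 7 genes tested had a TGFbeta response that differed between the hairpins, where 0.987% (0.563% higher and 0.424% lower) of all genes did by edgeR's test. With DESeq2 0 of the 6 given an adjusted p passed, SEMA3E having none, and by edgeR 3 of the 7 (SEMA3D, SEMA3E and NRP1) had an unadjusted p under 0.05. NRP2 came to a difference of 0.06 (SE 0.13). The marker sums that follow are made up largely of COL1A1 and VIM. Across the LX-2 libraries COL1A1 ran from 324 to 15322 CPM and VIM from 1069 to 2377 CPM, while the highest value of any other marker in the list was 1332 CPM (COL6A3). Summed stellate and mesenchymal markers, 9 of 12 over 1 CPM in each of these groups, were at 10036 to 10062 CPM under TGFbeta against 5509 to 5586 CPM in DMSO in shATF4 cells and at 19145 to 19243 CPM against 7891 to 8083 CPM in shCtrl cells, with DES and LRAT at 0 in both shATF4 TGFbeta libraries and LRAT at 0 in both shCtrl TGFbeta libraries. Their part in the results was not tested.

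Among the partners of the family, 9 of 9 plexins were tested and under TGFbeta 1 rose and 3 fell in shATF4 cells (median log2 change -0.07, against -0.02 for all genes), and 2 rose and 2 fell in shCtrl cells (median 0.01). Of all genes, 27.6% passed in shATF4 and 22.1% in shCtrl cells, which is the share beside this and the following counts. Whether partner counts differ from that share was not tested. PLXND1, the receptor of SEMA3E, rose in both, by 0.86 (SE 0.11, adjusted p = 3e-05) in shATF4 and 1.49 (SE 0.11, adjusted p = 4.3e-08) in shCtrl cells, and PLXNB3 had log2 changes of -1.25 (SE 0.21, adjusted p = 0.00042) in shATF4 and -1.23 (SE 0.20, adjusted p = 0.00023) in shCtrl cells. Of 7 VEGF ligands and receptors tested, 2 rose and 1 fell in each hairpin. In shCtrl cells FLT1, a VEGF receptor, changed by 2.39 (SE 0.21, adjusted p = 3.9e-07), VEGFA by 1.56 (SE 0.12, adjusted p = 6.6e-08) and VEGFC by -0.99 (SE 0.09, adjusted p = 9.4e-07). Of 4 proprotein convertases tested, 1 rose and 1 fell in each hairpin. FURIN, a protease that cleaves class 3 semaphorins, rose by 0.46 (SE 0.08, adjusted p = 0.00055) in shATF4 and 0.94 (SE 0.08, adjusted p = 3.9e-07) in shCtrl cells, and PCSK7, another member of that protease family, had log2 changes of -0.53 (SE 0.10, adjusted p = 0.00095) and -0.36 (SE 0.10, adjusted p = 0.015). Of 20 intracellular mediators tested in shCtrl cells 1 rose, MICAL2 (an actin-oxidising enzyme, 1.42 (SE 0.10, adjusted p = 2e-08)), and 5 fell.

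**Figure D3:**
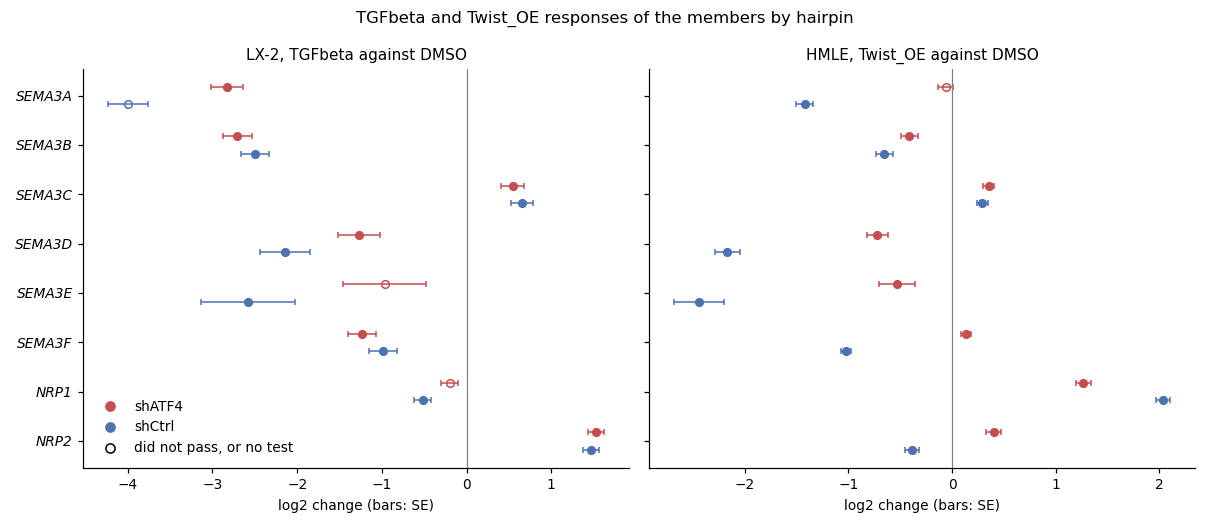
Log2 change of each gene under TGFbeta against DMSO in LX-2 cells and under Twist_OE against DMSO in HMLE cells, with shATF4 above shCtrl; bars are SE, and open symbols mark changes that did not pass the test or were not tested. NRP2 was higher in LX-2 with both hairpins (1.53 in shATF4, 1.47 in shCtrl), and NRP1 was higher in HMLE with both (1.26 in shATF4, 2.03 in shCtrl).

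Thapsigargin, which causes ER stress, changed all 8 genes in LX-2 with either hairpin, 3 higher and 5 lower in each, where 37.1% (17.8% higher and 19.2% lower) of all genes passed in shATF4 and 40.5% (20.2% higher and 20.4% lower) in shCtrl cells. AA_Dep changed 5 of 8 in each hairpin, 2 higher and 3 lower, where 42.4% (20.3% higher and 22.1% lower) of all genes passed in shATF4 and 45.6% (22.8% higher and 22.7% lower) in shCtrl cells. The lower genes of each of these counts include SEMA3E. Its falls from DMSO are a description, since it passed the filter mainly through DMSO. The thapsigargin and AA_Dep comparisons share their DMSO libraries. SEMA3A was at 8.12 and 9.96 CPM in thapsigargin and 6.92 and 7.73 CPM in AA_Dep, against 40.4 and 39.6 CPM in DMSO, in shATF4 cells (log2 change -2.22 (SE 0.18, adjusted p = 1.4e-07) and -2.53 (SE 0.18, adjusted p = 4e-08)). In shCtrl cells it was at 5.81 CPM in the 1 thapsigargin library used and 2.96 and 3.81 CPM in AA_Dep, against 25.7 and 18.3 CPM in DMSO (log2 change -2.02 (SE 0.25, adjusted p = 8.7e-06) and -2.72 (SE 0.20, adjusted p = 3e-08)). Every stressed library lay below every DMSO library of its hairpin, the discordant one at 2.62 CPM included. The shCtrl DMSO libraries are also the baseline of the SEMA3A fall known beforehand.

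SEMA3D, the neighbour of SEMA3A, went the other way. It had 17.8 and 18.9 CPM in thapsigargin and 13.6 and 14.6 CPM in AA_Dep, against 5.31 and 4.89 CPM in DMSO, in shATF4 cells (log2 change 1.78 (SE 0.20, adjusted p = 3.8e-06) and 1.38 (SE 0.20, adjusted p = 5.1e-05)). With the shCtrl hairpin it had 19.2 CPM in thapsigargin and 12.6 and 17.5 CPM in AA_Dep, against 4.27 and 3.95 CPM in DMSO (log2 change 2.12 (SE 0.23, adjusted p = 2.5e-06) and 1.85 (SE 0.20, adjusted p = 2e-06)). The discordant thapsigargin library stood at 3.87 CPM, below its DMSO group, and with it in the fit the rise in shATF4 cells in AA_Dep had an adjusted p of 0.064. TGFbeta, as given above, left SEMA3D below DMSO, so that it was the ligand with changes of opposite sign among the LX-2 conditions in both hairpins, besides SEMA3C, which was higher under TGFbeta and lower under thapsigargin.

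SEMA3C, whose upstream stretch holds the C/EBP-ATF match, had 82.1 and 90.3 CPM in thapsigargin against 106 and 114 CPM in DMSO in shATF4 cells (log2 change -0.42, SE 0.14, adjusted p = 0.022). In shCtrl cells it had 45.1 CPM in thapsigargin against 111 and 88.8 CPM in DMSO (log2 change -1.25, SE 0.18, adjusted p = 4.1e-05), and 13.6 CPM in the discordant library. With all 16 libraries the shATF4 fall had an adjusted p of 0.41. The thapsigargin fall was smaller with shATF4, by 0.83 (SE 0.22, adjusted p = 0.036) on the log2 scale, and with all 16 libraries that difference was 1.18 with an adjusted p of 0.26. In AA_Dep SEMA3C was at 101 and 107 CPM in shATF4 and 79.8 and 114 CPM in shCtrl cells and passed the test in neither. The shCtrl AA_Dep replicates differed more from each other than the pairs of the other groups apart from shCtrl thapsigargin, and for SEMA3C they spanned the DMSO libraries. In fits without 1 library, the shATF4 thapsigargin change had adjusted p = 0.13 without shATF4 DMSO replicate 2 and 0.15 without shATF4 Tg replicate 1, and the difference between hairpins had adjusted p from 0.054 to 0.12 without shATF4 AA_Dep replicate 1 or 2, shATF4 DMSO replicate 1 or 2, shATF4 Tg replicate 1 or 2, shATF4 TGFbeta replicate 1, shCtrl DMSO replicate 1 or shCtrl TGFbeta replicate 2.

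SEMA3B had 29.8 and 27.4 CPM in thapsigargin against 44.0 and 42.5 CPM in DMSO in shATF4 cells (log2 change -0.67, SE 0.15, adjusted p = 0.0023). Cells with shCtrl had 20.2 CPM against 40.5 and 48.9 CPM in DMSO (log2 change -1.25, SE 0.19, adjusted p = 9e-05). The shCtrl fall rests on 1 library, for the discordant one stood at 47.5 CPM, and with both the log2 change was 0.18 (adjusted p = 0.79). With all 16 libraries the shATF4 fall had an adjusted p of 0.53. SEMA3B did not pass the test in AA_Dep in either hairpin. SEMA3F fell in all 4 of these comparisons, to 3.91 to 5.67 CPM in the 7 stressed libraries used, against 10.5 to 14.7 CPM in DMSO, with log2 changes of -1.86 and -1.53 in shATF4 and -1.33 and -1.21 in shCtrl cells. SEMA3E had 15 counts in thapsigargin and 11 in AA_Dep, against 47 in DMSO, over the shATF4 libraries, and 1 and 6 counts against 61 in shCtrl cells. These falls of SEMA3E are a description, since it passed the filter mainly through DMSO. The smallest had a log2 change of -1.52 (SE 0.52, adjusted p = 0.031), with adjusted p-values of 0.09 with DESeq2 and 0.17 with 16 libraries. For the single count in shCtrl thapsigargin the scaled ratio was 0.0355, with an interval from 0.000883 to 0.205. Leaving out 1 library, SEMA3E in shATF4 thapsigargin cells had adjusted p from 0.053 to 0.2 without shATF4 DMSO replicate 1 or 2 or shATF4 Tg replicate 1 or 2.

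NRP2 was the receptor that responded to both stresses in LX-2. In shATF4 cells it had 177 and 182 CPM in thapsigargin and 79.9 and 80.3 CPM in AA_Dep, against 19.1 and 20.3 CPM in DMSO (log2 change 3.12 (SE 0.10, adjusted p = 2.4e-12) and 1.94 (SE 0.09, adjusted p = 6e-10)). With the shCtrl hairpin it had 135 CPM in thapsigargin and 58.8 and 68.1 CPM in AA_Dep, against 34.3 and 31.3 CPM in DMSO (log2 change 1.94 (SE 0.10, adjusted p = 8.9e-10) and 0.93 (SE 0.09, adjusted p = 5.6e-07)). All stressed libraries lay above all DMSO libraries, the discordant one, at 37.4 CPM, by the least. The NRP2 rise was larger with shATF4, by 1.17 (SE 0.14, adjusted p = 0.00012) in thapsigargin and 1.01 (SE 0.13, adjusted p = 0.00017) in AA_Dep on the log2 scale. With all 16 libraries these differences were 1.58 (adjusted p = 0.13) and 1.01 (adjusted p = 0.69). SEMA3C and NRP2 were the genes of the family whose thapsigargin response differed between hairpins, where 6.13% (3.67% higher and 2.46% lower) of all genes did, and NRP2 was the 1 whose AA_Dep response did, where 10.6% (3.91% higher and 6.65% lower) did.

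NRP1 moved little in stressed LX-2 cells. It had 182 and 183 CPM in thapsigargin against 139.7 and 149 CPM in DMSO in shATF4 cells (log2 change 0.27, SE 0.10, adjusted p = 0.042). The shCtrl libraries had 214 CPM against 163 and 152 CPM in DMSO (log2 change 0.34, SE 0.12, adjusted p = 0.028). The discordant library had 77.5 CPM, and with it the adjusted p-values were 0.54 in shATF4 and 0.76 in shCtrl cells. In AA_Dep, NRP1 passed the test in neither hairpin. The marker sums that follow are again made up largely of COL1A1 and VIM. Summed stellate and mesenchymal markers were lower in stress, at 3008 to 3045 CPM in thapsigargin and 3487 to 3597 CPM in AA_Dep in shATF4 cells and at 1552 to 2033 and 3328 to 3513 CPM in shCtrl cells, the discordant library included, with 7 or 8 of 12 over 1 CPM, DES at 0 in thapsigargin with both hairpins and in shCtrl AA_Dep, and HGF at 0 in both stresses of shCtrl cells. Their part in the results was not tested. With 1 library left out, the thapsigargin change of NRP1 had adjusted p from 0.054 to 0.21 without shATF4 AA_Dep replicate 1 or 2, shATF4 DMSO replicate 1 or 2, shATF4 Tg replicate 1 or 2, shATF4 TGFbeta replicate 1 or shCtrl TGFbeta replicate 2 in shATF4 cells and adjusted p = 0.11 without shCtrl DMSO replicate 2 in shCtrl cells.

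Of the 9 plexins, 1 rose and 4 fell in thapsigargin with shATF4 (median -0.35, all genes 0.01) and 1 rose and 5 fell with shCtrl (median -0.84, all genes 0.01). In thapsigargin 37.1% of all genes passed with shATF4 and 40.5% with shCtrl, which is also the share beside the VEGF counts below. PLXND1 fell in both, with log2 changes of -2.03 (SE 0.12, adjusted p = 5.1e-09) in shATF4 and -2.82 (SE 0.17) in shCtrl cells. It fell in AA_Dep as well, with -1.65 (SE 0.12, adjusted p = 3.5e-08) and -2.05 (SE 0.12, adjusted p = 1.4e-09). Its ligand SEMA3E had lower counts in these stressed cells too, which is a description, since SEMA3E passed the filter mainly through DMSO. PLXNA1, a plexin that pairs with neuropilins, changed by -1.36 (SE 0.10, adjusted p = 2.9e-08) in shCtrl thapsigargin. Of 7 VEGF ligands and receptors, 2 rose and 2 fell in thapsigargin with shATF4, and 3 rose and 2 fell with shCtrl. VEGFC, a neuropilin-2 ligand, had log2 changes of -1.25 (SE 0.09, adjusted p = 4.7e-08) in shATF4 and -1.54 (SE 0.12, adjusted p = 7.5e-08) in shCtrl cells.

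The hairpins were also compared with each other within each LX-2 condition. In DMSO 2 of 8 passed, where 11.6% (6.28% higher and 5.3% lower) of all genes did: SEMA3A, with 40.4 and 39.6 CPM in shATF4 against 25.7 and 18.3 CPM in shCtrl cells (log2 change 0.85, SE 0.17, adjusted p = 0.0036), and NRP2, with 19.1 and 20.3 CPM in shATF4 against 34.3 and 31.3 CPM in shCtrl cells (log2 change -0.75, SE 0.10, adjusted p = 0.0001). Under TGFbeta 2 of 7 passed, where 21.7% (10.9% higher and 10.7% lower) of all genes did: SEMA3D was higher in shATF4 cells (log2 change 1.17, SE 0.33, adjusted p = 0.018) and NRP2 lower (log2 change -0.69, SE 0.09, adjusted p = 4.6e-05). In thapsigargin 2 of 8 passed, where 5.2% (3.11% higher and 2.09% lower) did, both higher in shATF4 cells: SEMA3C (log2 change 0.95, SE 0.18, adjusted p = 0.005) and NRP2 (log2 change 0.42, SE 0.11, adjusted p = 0.028), against the 1 shCtrl library used. In AA_Dep 2 of 8 passed, where 9.91% (3.87% higher and 6.04% lower) did: SEMA3A was higher in shATF4 cells (log2 change 1.04, SE 0.22, adjusted p = 0.0073) and NRP1 lower (log2 change -0.35, SE 0.10, adjusted p = 0.032). NRP2 was thus lower in shATF4 cells in DMSO and TGFbeta and higher in thapsigargin. With the discordant library in the fit 0 of these 8 calls remained, and their adjusted p-values ran from 0.059 for SEMA3C in thapsigargin to 1 for NRP1 in AA_Dep. When 1 library was left out, SEMA3A had adjusted p = 0.075 without shCtrl DMSO replicate 2 in the DMSO comparison and adjusted p = 0.069 without shATF4 AA_Dep replicate 2 in the AA_Dep comparison. SEMA3D under TGFbeta had adjusted p = 0.086 without shATF4 TGFbeta replicate 1, 0.06 without shATF4 TGFbeta replicate 2 and 0.18 without shCtrl TGFbeta replicate 1. NRP2 in thapsigargin had adjusted p from 0.05 to 0.13 without shATF4 AA_Dep replicate 1, shATF4 Tg replicate 1 or 2, shATF4 TGFbeta replicate 1 or shCtrl TGFbeta replicate 1 or 2, and NRP1 in AA_Dep had adjusted p from 0.054 to 0.21 without shATF4 AA_Dep replicate 1 or 2, shATF4 TGFbeta replicate 2, shCtrl AA_Dep replicate 2 or shCtrl TGFbeta replicate 1. The count over all conditions was 5 of 31 without shCtrl TGFbeta replicate 1, against 8 of 31.

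**Figure D4:**
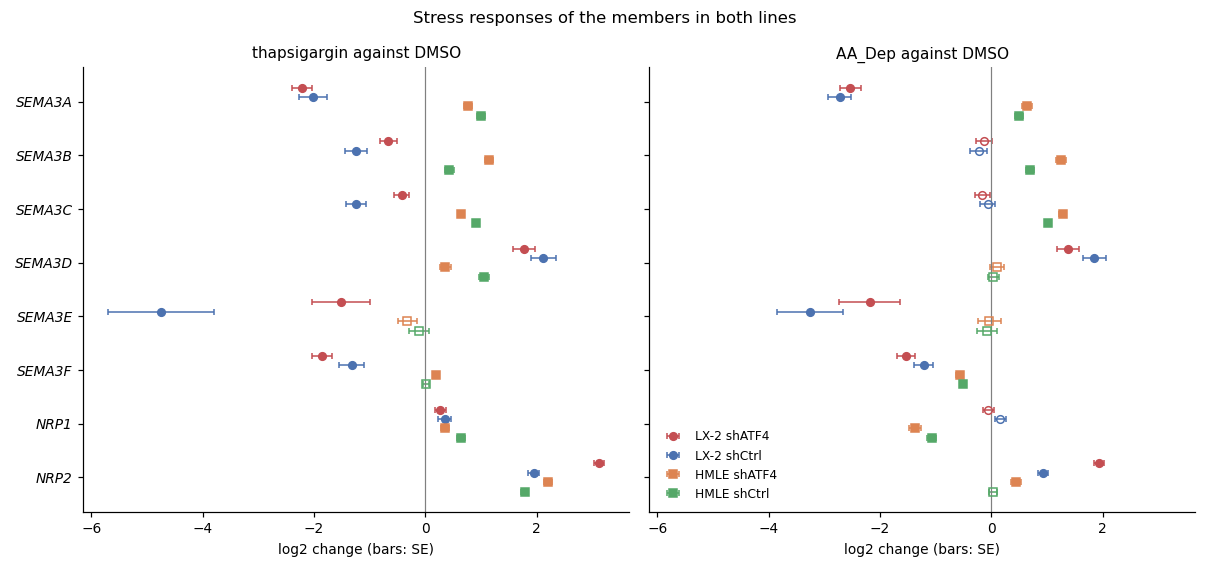
Log2 change of each gene in thapsigargin (Tg) and in AA_Dep against DMSO, for LX-2 (circles) and HMLE (squares), shATF4 above shCtrl; bars are SE, and open symbols mark changes that did not pass the test. SEMA3A lay below 0 in LX-2 (from -2.72 to -2.02) and above 0 in HMLE (from 0.49 to 1.0) in both stresses and both hairpins.

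In HMLE cells Twist_OE, which drives epithelial cells towards a mesenchymal state, was set against DMSO. The labels name no empty-vector group and do not say whether Twist_OE cells were given DMSO. Twist therefore cannot be told apart from vector or vehicle in these comparisons. In shATF4 cells 7 of 8 genes passed, 4 higher and 3 lower, where 35.3% (18.2% higher and 17.2% lower) of 17940 genes did, and in shCtrl cells all 8 passed, 2 higher and 6 lower, where 57.2% (28.3% higher and 28.9% lower) did. The labels do not say which Twist gene was overexpressed. TWIST1 averaged 30.6 ± 0.948 CPM in shATF4 Twist_OE cells and 128 ± 12.7 CPM in shCtrl Twist_OE cells, against 12.2 ± 3.09 and 16.6 ± 0.343 CPM in the DMSO cells of these hairpins (SD, n = 2 each), a log2 difference of -2.09 between the hairpins under Twist_OE. TWIST2 averaged 6.46 ± 0.0733 CPM in shATF4 and 20.01 ± 0.252 CPM in shCtrl Twist_OE cells, against 2.85 ± 0.11 and 3.49 ± 0.318 CPM in DMSO. Across the HMLE libraries KRT5 and KRT17 had the highest medians of the epithelial markers, 2616 and 2194 CPM. COL1A1 and VIM reached the highest values of the stellate and mesenchymal markers, 1209 and 802 CPM. The marker sums that follow therefore need not speak for each marker. Summed mammary epithelial markers, all 10 of 10 over 1 CPM in each group and none at 0, stood at 6128 to 6204 CPM in shATF4 and 967 to 991 CPM in shCtrl Twist_OE cells, against 6954 to 7083 and 7887 to 7972 CPM in DMSO. Summed stellate and mesenchymal markers stood at 462 to 521 CPM in shATF4 (9 of 12 over 1 CPM) and 2887 to 2991 CPM in shCtrl Twist_OE cells (10 of 12), against 51.6 to 52.4 and 48.5 to 52.6 CPM in DMSO (6 of 12 each), where PDGFRA and HGF were at 0 with either hairpin. The part of these differences in the hairpin comparisons below was not tested.

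The receptor NRP1 had the largest rise of the family under Twist_OE. It had 179 and 173 CPM in Twist_OE against 69.5 and 74.1 CPM in DMSO in shATF4 cells (log2 change 1.26, SE 0.07, adjusted p = 8.3e-11). With shCtrl the levels were 418 and 361 CPM against 95.8 and 95.9 CPM in DMSO (log2 change 2.03, SE 0.07, adjusted p = 8.3e-15). Both Twist_OE groups lay above both DMSO groups, and the rise was smaller with shATF4, by 0.77 on the log2 scale (interaction -0.77, SE 0.10, adjusted p = 5.6e-06). NRP2 had 32.4 and 32.5 CPM in Twist_OE against 23.2 and 24.9 CPM in DMSO in shATF4 cells (log2 change 0.40, SE 0.07, adjusted p = 0.00022). In shCtrl cells it had 25.8 and 25.3 CPM in Twist_OE against 32.9 and 34.5 CPM in DMSO (log2 change -0.39, SE 0.07, adjusted p = 0.00013). NRP2 was therefore higher with one hairpin and lower with the other, and the difference itself passed (0.79 (SE 0.10, adjusted p = 5.4e-06)).

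Among the ligands, SEMA3A had 69.8 and 65.2 CPM in Twist_OE against 68.1 and 69.96 CPM in DMSO in shATF4 cells (log2 change -0.06, SE 0.07, adjusted p = 0.55). With the shCtrl hairpin it had 25.1 and 20.5 CPM in Twist_OE against 61.3 and 61.7 CPM in DMSO (log2 change -1.42, SE 0.08, adjusted p = 1.3e-11). The shATF4 libraries overlapped with DMSO and the shCtrl libraries did not. SEMA3F, with 3 E-boxes in the stretch shown, had 172 and 174 CPM in Twist_OE against 155 and 152 CPM in DMSO in shATF4 cells (log2 change 0.14, SE 0.05, adjusted p = 0.031; 0.11 with DESeq2). In shCtrl cells it had 65.5 and 66.1 CPM against 130.2 and 139 CPM in DMSO (log2 change -1.02, SE 0.05, adjusted p = 2.1e-12). The response of SEMA3F thus differed between the hairpins by 1.16 (SE 0.07, adjusted p = 1.4e-10) on the log2 scale, and that of SEMA3A by 1.36 (SE 0.11, adjusted p = 7e-09). In fits without 1 library, SEMA3F in shATF4 cells had adjusted p from 0.079 to 0.18 without shATF4 DMSO replicate 1 or 2, shATF4 Twist_OE replicate 1 or 2 or shCtrl Twist_OE replicate 1.

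SEMA3D had 20.6 and 16.3 CPM in Twist_OE against 29.4 and 29.8 CPM in DMSO in shATF4 cells (log2 change -0.72, SE 0.10, adjusted p = 1.6e-05). In the shCtrl hairpin it had 6.25 and 5.54 CPM against 27.9 and 25.3 CPM in DMSO (log2 change -2.17, SE 0.12, adjusted p = 1e-11). SEMA3E, whose stretch holds the palindromic E-box, had 5.35 and 5.77 CPM in Twist_OE against 7.31 and 8.47 CPM in DMSO in shATF4 cells (log2 change -0.53, SE 0.17, adjusted p = 0.021; 0.071 with DESeq2). Cells with shCtrl had 0.935 and 1.14 CPM against 5.56 and 5.92 CPM in DMSO (log2 change -2.44, SE 0.24, adjusted p = 4.2e-08). Both fell with either hairpin, and the falls were smaller with shATF4, by 1.45 (SE 0.16, adjusted p = 7.3e-07) for SEMA3D and 1.91 (SE 0.30, adjusted p = 5.9e-05) for SEMA3E. SEMA3B had 39.9 and 41.3 CPM in Twist_OE against 53.1 and 52.6 CPM in DMSO in shATF4 cells (log2 change -0.41) and 32.2 and 38.6 CPM in Twist_OE against 56.1 and 56.3 CPM in DMSO in shCtrl cells (-0.65). SEMA3C rose with both hairpins, by 0.35 in shATF4 and 0.29 in shCtrl cells. For these 2 genes a difference between the hairpins did not pass, so that 6 of 8 did, where 29.7% (16.3% higher and 13.4% lower) of all genes did. Leaving out 1 library, SEMA3E in shATF4 cells had adjusted p = 0.16 without shATF4 DMSO replicate 2, 0.087 without shATF4 Twist_OE replicate 1 and 0.07 without shATF4 Twist_OE replicate 2.

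In Twist_OE cells, 7 of 8 genes differed between shATF4 and shCtrl, where 47.2% (23.3% higher and 23.9% lower) of all genes did, with SEMA3A, SEMA3C, SEMA3D, SEMA3E, SEMA3F and NRP2 higher and NRP1 lower in shATF4 cells. The log2 differences of the semaphorins ran from 0.17 for SEMA3C to 2.38 for SEMA3E, and that of NRP1 was -1.17. Of the 9 plexins, 6 rose and 0 fell under Twist_OE in shATF4 cells and 6 rose and 1 fell in shCtrl cells, with medians of 0.29 and 0.48 (all genes 0.01 and 0.00). Under Twist_OE 35.3% of all genes passed in shATF4 and 57.2% in shCtrl cells. The same shares stand beside the counts of other semaphorins and mediators below. PLXND1 rose by 1.72 (SE 0.18, adjusted p = 5.3e-07) in shATF4 and 3.22 (SE 0.16, adjusted p = 1.6e-12) in shCtrl cells, while its ligand SEMA3E fell. VEGFC rose by 1.45 (SE 0.06, adjusted p = 2.2e-12) in shATF4 and 2.85 (SE 0.06, adjusted p = 1.2e-17) in shCtrl cells, and L1CAM, an adhesion molecule that binds neuropilin-1, fell, with log2 changes of -0.36 (SE 0.09, adjusted p = 0.0031) and -1.68 (SE 0.11, adjusted p = 8.8e-11). Among 12 other semaphorins tested, SEMA5A, a membrane-bound one, rose by 4.59 (SE 0.17, adjusted p = 1.3e-13) and 5.94 (SE 0.16, adjusted p = 2.1e-16), and 6 rose and 1 fell in shATF4 cells against 4 and 4 in shCtrl cells. Of 19 intracellular mediators tested, 8 rose and 2 fell in shATF4 and 10 rose and 3 fell in shCtrl cells, DPYSL3, a cytoskeletal protein of the collapsin response mediator family, by 1.64 (SE 0.05, adjusted p = 1.2e-14) and 2.26 (SE 0.05, adjusted p = 1.1e-17). With 1 library left out, the SEMA3C difference between hairpins had adjusted p = 0.16 without shATF4 Twist_OE replicate 1 and 0.14 without shCtrl Twist_OE replicate 2.

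Thapsigargin raised most of the family in HMLE. In shATF4 cells 7 of 8 genes passed, all higher, where 32.5% (16.8% higher and 15.7% lower) of all genes passed, and in shCtrl cells 6 of 8, all higher, where 36.8% (18.6% higher and 18.2% lower) did. NRP2 had 110.2 and 107 CPM in thapsigargin against 23.2 and 24.9 CPM in DMSO in shATF4 cells (log2 change 2.20, SE 0.07, adjusted p = 1.3e-14). The shCtrl libraries had 117 and 107 CPM against 32.9 and 34.5 CPM in DMSO (log2 change 1.78, SE 0.07, adjusted p = 9.6e-14). It had the largest rise of the family there with either hairpin, and all 4 thapsigargin libraries lay above all other HMLE libraries. NRP1 rose less, by 0.35 (SE 0.07, adjusted p = 0.0011) in shATF4 and 0.64 (SE 0.07, adjusted p = 6.7e-07) in shCtrl cells. SEMA3A had 118 and 114 CPM in thapsigargin against 68.1 and 69.96 CPM in DMSO in shATF4 cells (log2 change 0.77, SE 0.07, adjusted p = 6.9e-08). With shCtrl the levels were 119.7 and 119 CPM against 61.3 and 61.7 CPM in DMSO (log2 change 1.0, SE 0.07, adjusted p = 1.4e-09). No thapsigargin library overlapped with DMSO.

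The other ligands rose by unequal amounts with the 2 hairpins. SEMA3B had 114 and 116 CPM in thapsigargin against 53.1 and 52.6 CPM in DMSO in shATF4 cells (log2 change 1.14, SE 0.08, adjusted p = 9.5e-10). In the shCtrl hairpin it had 80.4 and 66.3 CPM against 56.1 and 56.3 CPM in DMSO (log2 change 0.43, SE 0.08, adjusted p = 0.00019), so that its rise was larger with shATF4 (0.71 (SE 0.11, adjusted p = 0.0004)). SEMA3D had 38.9 and 36.0 CPM in thapsigargin against 29.4 and 29.8 CPM in DMSO in shATF4 cells (log2 change 0.36, SE 0.09, adjusted p = 0.0061). Cells with shCtrl had 54.4 and 53.0 CPM against 27.9 and 25.3 CPM in DMSO (log2 change 1.06, SE 0.09, adjusted p = 3.2e-08). The SEMA3D rise was smaller with shATF4 (-0.70 (SE 0.13, adjusted p = 0.0031)), and so was that of SEMA3C (-0.28 (SE 0.08, adjusted p = 0.038)), while that of NRP2 was larger (0.41 (SE 0.09, adjusted p = 0.012)). SEMA3C had 146 and 159 CPM in shATF4 and 173 and 168 CPM in shCtrl thapsigargin cells, against 99.7 and 99.1 and 91.9 and 94.5 CPM in their DMSO cells. In all, 4 of 8 genes had a thapsigargin response that differed between hairpins, where 4.56% (2.16% higher and 2.4% lower) of all genes did. SEMA3E did not pass with either hairpin, and SEMA3F passed in shATF4 cells alone (0.18 (SE 0.05, adjusted p = 0.0061)); whether its response differs between the hairpins did not pass the test (adjusted p = 0.18). When 1 library was left out, SEMA3D in shATF4 cells had adjusted p = 0.054 without shATF4 DMSO replicate 1 and 0.067 without shATF4 Tg replicate 1 and SEMA3F had adjusted p = 0.066 without shATF4 DMSO replicate 2 and 0.068 without shATF4 Tg replicate 1. The difference between hairpins had adjusted p from 0.057 to 0.18 without shATF4 DMSO replicate 1 or 2, shATF4 Tg replicate 1, shCtrl DMSO replicate 1 or 2 or shCtrl Tg replicate 1 or 2 for SEMA3C and adjusted p from 0.054 to 0.088 without shATF4 DMSO replicate 1, shATF4 Tg replicate 1, shCtrl DMSO replicate 2 or shCtrl Tg replicate 2 for NRP2.

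AA_Dep changed 6 of 8 genes in shATF4 HMLE cells, 4 higher and 2 lower, where 54.1% (25.7% higher and 28.4% lower) of all genes passed, and 5 of 8 in shCtrl cells, 3 higher and 2 lower, where 61.7% (29.1% higher and 32.6% lower) did. The shATF4 values rest on 1 AA_Dep library, with its spread taken from the other groups. NRP1 had 29.3 CPM in AA_Dep against 69.5 and 74.1 CPM in DMSO in shATF4 cells (log2 change -1.38, SE 0.11, adjusted p = 3.1e-09). The shCtrl libraries had 48.4 and 50.3 CPM against 95.8 and 95.9 CPM in DMSO (log2 change -1.07, SE 0.08, adjusted p = 6.1e-10). These were the lowest NRP1 levels of the 31 libraries. SEMA3C had 255 CPM in AA_Dep against 99.7 and 99.1 CPM in DMSO in shATF4 cells (log2 change 1.28, SE 0.06, adjusted p = 6.8e-12). With shCtrl the levels were 202 and 204 CPM against 91.9 and 94.5 CPM in DMSO (log2 change 1.01, SE 0.05, adjusted p = 1e-11). For SEMA3C these were the highest levels of all libraries.

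SEMA3B had 134 CPM in AA_Dep against 53.1 and 52.6 CPM in DMSO in shATF4 cells (log2 change 1.26, SE 0.09, adjusted p = 1.2e-09). In the shCtrl hairpin it had 101 and 96.0 CPM against 56.1 and 56.3 CPM in DMSO (log2 change 0.69, SE 0.08, adjusted p = 2.6e-07). Its rise was larger with shATF4, by 0.56 (SE 0.12, adjusted p = 0.0074). SEMA3A rose with both hairpins, by 0.64 (SE 0.09, adjusted p = 3.5e-06) in shATF4 and 0.49 (SE 0.07, adjusted p = 7.7e-06) in shCtrl cells, and SEMA3F fell with both, with log2 changes of -0.57 (SE 0.06, adjusted p = 3.1e-07) and -0.51 (SE 0.05, adjusted p = 5.5e-08). NRP2 rose in shATF4 cells (0.44 (SE 0.09, adjusted p = 0.00043)) and stood at 35.8 and 38.5 CPM in AA_Dep against 32.9 and 34.5 CPM in DMSO in shCtrl cells, which did not pass. The difference between the hairpins in NRP2 was 0.41 (SE 0.11, adjusted p = 0.048) and did not pass with DESeq2 (0.14) or with DESeq2's size factors in edgeR. Of the 8 genes, 2 had such a difference, where 5.09% (2.99% higher and 2.1% lower) of all genes did, and SEMA3D and SEMA3E did not pass in AA_Dep with either hairpin. In fits without 1 library, the NRP2 difference had adjusted p from 0.056 to 0.22 without shATF4 DMSO replicate 1 or 2, shATF4 Tg replicate 1 or 2, shATF4 Twist_OE replicate 1 or 2, shCtrl AA_Dep replicate 1, shCtrl DMSO replicate 1 or 2 or shCtrl Twist_OE replicate 1.

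Between the hairpins without Twist_OE, NRP1 was lower in shATF4 HMLE cells in DMSO (-0.40 (SE 0.07, adjusted p = 0.00094)), in thapsigargin (-0.70 (SE 0.07, adjusted p = 6.2e-07)) and in AA_Dep (-0.71 (SE 0.11, adjusted p = 0.00011)), and its libraries did not overlap in any of these. In DMSO 3 of 8 genes passed, NRP2 being lower as well (-0.47 (SE 0.07, adjusted p = 0.00018)) and SEMA3F higher (0.20 (SE 0.05, adjusted p = 0.0089)), where 12.8% (6.08% higher and 6.72% lower) of all genes passed. In thapsigargin 5 of 8 passed, where 24.3% (12.3% higher and 11.9% lower) did, SEMA3B and SEMA3F being higher and SEMA3C, SEMA3D and NRP1 lower in shATF4 cells. In AA_Dep 4 of 8 passed, where 16.9% (9.77% higher and 7.09% lower) did, SEMA3A, SEMA3B and SEMA3C being higher and NRP1 lower in shATF4 cells. Leaving out 1 library, SEMA3F in DMSO had adjusted p = 0.053 without shATF4 DMSO replicate 1 and 0.15 without shCtrl DMSO replicate 1, SEMA3C in thapsigargin adjusted p = 0.21 without shATF4 Tg replicate 1 and 0.088 without shCtrl Tg replicate 1 and SEMA3A in AA_Dep adjusted p = 0.083 without shCtrl AA_Dep replicate 1.

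Of the 9 plexins in HMLE cells, 2 rose and 1 fell in thapsigargin with shATF4 (median log2 change 0.23, all genes 0.00), and 1 rose and 3 fell with shCtrl (median -0.14, all genes 0). These counts were near the share of all genes that passed, 32.5% with shATF4 and 36.8% with shCtrl. PLXNA1 had log2 changes of -0.75 (SE 0.06, adjusted p = 1.9e-08) in shATF4 and -1.2 (SE 0.06, adjusted p = 1.8e-11) in shCtrl cells. In AA_Dep 4 rose and 2 fell with either hairpin, with medians of 0.53 in shATF4 and 0.20 in shCtrl cells (all genes 0.01 and 0.00). This too was near the share of all genes that passed in AA_Dep, 54.1% in shATF4 and 61.7% in shCtrl cells. PLXNA3 had log2 changes there of 1.04 (SE 0.12, adjusted p = 8e-07) in shATF4 and 1.17 (SE 0.10, adjusted p = 1.2e-08) in shCtrl cells, and PLXND1 of -0.93 (SE 0.33, adjusted p = 0.024) and -1.17 (SE 0.23, adjusted p = 0.00025). VEGFA, a neuropilin-1 ligand, had log2 changes in thapsigargin of 1.45 (SE 0.11, adjusted p = 4.1e-09) in shATF4 and 2.12 (SE 0.11, adjusted p = 1.2e-11) in shCtrl cells.

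With the conditions labelled thapsigargin and AA_Dep the ligands changed otherwise in LX-2 than in HMLE, tested as the difference of the shCtrl responses. The labels give no dose or duration, so line cannot be told apart from a treatment setting or batch that differed with it. In thapsigargin 6 of 8 genes differed, where 27.7% (12.8% higher and 14.9% lower) of all genes did, and in AA_Dep all 8 did, where 40.3% (21% higher and 19.3% lower) did. For SEMA3A the LX-2 minus HMLE difference was -3.04 (SE 0.23, adjusted p = 8.5e-11) in thapsigargin and -3.24 (SE 0.20, adjusted p = 1.4e-12) in AA_Dep, the gene being lower than DMSO in LX-2 and higher in HMLE. For SEMA3C it was -2.18 (SE 0.18, adjusted p = 5.6e-10) and -1.11 (SE 0.15, adjusted p = 1.6e-06), and for SEMA3B -1.69 (SE 0.20, adjusted p = 3.7e-07) and -0.95 (SE 0.17, adjusted p = 6.1e-05). SEMA3D was the ligand that rose more in LX-2, by 1.05 (SE 0.23, adjusted p = 0.0012) in thapsigargin and 1.78 (SE 0.22, adjusted p = 2.3e-07) in AA_Dep. For SEMA3F the difference was -1.35 (SE 0.17) in thapsigargin and -0.73 (SE 0.14, adjusted p = 0.00012) in AA_Dep, and for SEMA3E -4.65 (SE 0.82) and -3.21 (SE 0.53, adjusted p = 2e-05). The LX-2 side of SEMA3E held 1 count in thapsigargin and 6 in AA_Dep, against 61 in DMSO. Its differences are therefore a description, although the counts of genes above include it. The NRP2 rise in thapsigargin did not pass as different between the lines (0.15 (SE 0.12, adjusted p = 0.42)), nor did that of NRP1, whereas in AA_Dep NRP1 and NRP2 were higher in LX-2 relative to HMLE by 1.2 and 0.87. With all 16 LX-2 libraries the thapsigargin differences of SEMA3B and SEMA3D came to -0.43 and 0.47 (adjusted p = 0.58 and 0.5), and the AA_Dep differences of SEMA3B and NRP2 had adjusted p-values of 0.23 and 0.059.

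Within a line, the order of the groups shows how each gene used its range. SEMA3A had the widest range of group means in LX-2, 4.77 on the log2 scale, with shATF4 DMSO highest at 40.4 and 39.6 CPM, shCtrl DMSO next, and shCtrl TGFbeta lowest at 1.57 and 0.959 CPM. The shCtrl thapsigargin library used, at 5.81 CPM, lay just above the shATF4 TGFbeta libraries, and with the discordant library that group overlapped with shATF4 TGFbeta and shCtrl AA_Dep. That lowest group is the one the choice of the family rested on, so this range and the genes alike it are a description and support nothing. Likeness was ranked among tested genes with a symbol and a mean of at least 5 CPM, clone names and pseudogenes left out. In that ranking the genes whose normalised log2 CPM followed SEMA3A most closely over the 15 LX-2 libraries were FOXRED2 (Pearson r 0.969), PLPP3 (0.931) and AXL (0.925). NRP1 had the widest range in HMLE, 3.81 on the log2 scale, from 29.3 CPM in the shATF4 AA_Dep library to 418 and 361 CPM in shCtrl Twist_OE. CKAP4 (0.993), SEC23A (0.99) and DIXDC1 (0.989) followed it most closely over the 15 HMLE libraries in the same ranking. These correlations describe libraries that share conditions and carry no test. NRP2 ran in LX-2 from 19.1 and 20.3 CPM in shATF4 DMSO to 177 and 182 CPM in shATF4 thapsigargin cells, and in HMLE both thapsigargin groups, which overlapped, were above all others. SEMA3B was spread little in LX-2 outside TGFbeta and thapsigargin, the 4 DMSO and AA_Dep groups overlapping between 31.9 and 48.9 CPM.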

How the data were processed

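RNA was measured in 32 libraries of LX-2 and HMLE cells, and 9 ChIP-seq samples of the series are not analysed here. The deposited values were raw counts per Ensembl gene, made by the authors from RNA isolated with Qiagen RNeasy and a SMARTER mRNA-Seq kit, per the labels' protocols. The submitters' processing notes list cutadapt, Bowtie2, STAR, HOMER, featureCounts and DESeq and the builds hg19 and hg38 for the series as a whole, and which of them made the counts is not given in the sources used here. Rows without a gene identifier, 452 in each LX-2 file and 110 in each HMLE file, held no counted gene and were left out.

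Counts were tested with edgeR 4.0.16 (quasi-likelihood F test, limma 3.58.1, R 4.3.3): genes were kept by filterByExpr with a minimum count of 10, libraries were scaled by TMM, and p-values were Benjamini-Hochberg adjusted over all genes, with 0.05 as threshold. The SE is the log2 change divided by the square root of F. LX-2 (15 libraries, 18649 genes) and HMLE (15 libraries, 17940 genes) were fitted apart, and both together (30 libraries, 20308 genes) to compare the lines. LX-2 shCtrl thapsigargin replicate 2 was left out, a choice made from earlier results of these data, and 2 identical HMLE files counted as 1 library. A group left with 1 library is assumed to vary like the other groups. The fit was tested on simulated data. Alternatives were DESeq2 1.42.0, its size factors in edgeR, no filter, the compared groups alone, the replicate number as a block, and each library left out.

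The 8 genes, the gene lists and the named genes (the 8 members, ATF4, and from each list at most 3 that passed, by size of change, plus at most 2 more) were chosen with earlier results of these data known. TWIST1 and TWIST2 lie outside that rule and were chosen after their values were seen. SEMA3A in comparisons with shCtrl TGFbeta libraries is given with no test and is in no count, because its fall there stood in those results. Intervals cover counting error only.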

Additional observations from a re-analysis of the deposited data

Results flagged for a closer look

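These results are listed because a test of the difference between 2 effects passed the threshold (edgeR's quasi-likelihood test, Benjamini-Hochberg adjusted over all genes). All values are differences of log2 changes, with n = 2 libraries per group except the groups with 1 library named above.

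The LX-2 response to thapsigargin differed between shATF4 and shCtrl cells by 0.83 for SEMA3C and 1.17 for NRP2, and the response to AA_Dep by 1.01 for NRP2. None of these 3 passed with all 16 LX-2 libraries.

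The HMLE response to Twist_OE differed between shATF4 and shCtrl cells by 1.36 for SEMA3A, 1.45 for SEMA3D, 1.91 for SEMA3E, 1.16 for SEMA3F, -0.77 for NRP1 and 0.79 for NRP2. The thapsigargin response there differed by 0.71 for SEMA3B, -0.28 for SEMA3C, -0.70 for SEMA3D and 0.41 for NRP2, and the AA_Dep response by 0.56 for SEMA3B and 0.41 for NRP2.

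The shCtrl thapsigargin response of LX-2 minus that of HMLE was -3.04 for SEMA3A, -1.69 for SEMA3B, -2.18 for SEMA3C, 1.05 for SEMA3D, -4.65 for SEMA3E and -1.35 for SEMA3F. For AA_Dep the same difference was -3.24 for SEMA3A, -0.95 for SEMA3B, -1.11 for SEMA3C, 1.78 for SEMA3D, -3.21 for SEMA3E, -0.73 for SEMA3F, 1.2 for NRP1 and 0.87 for NRP2. Both SEMA3E values are a description, since their LX-2 side held 1 count in thapsigargin and 6 in AA_Dep.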

How the results depend on the processing

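Of 141 calls among 229 gene and comparison pairs, 138 were kept with DESeq2's size factors, 136 with DESeq2, 137 with no filter and 136 with the compared groups alone. The choice with the most effect was the discordant LX-2 library: with all 16 LX-2 libraries 42 of 71 LX-2 calls were kept, the count of genes called was 12 for the conditions in shATF4 cells (19 without it), 0 for the hairpin comparison (8 without it) and 0 for the differences between hairpins (3 without it), and SEMA3B in shCtrl thapsigargin cells turned to a log2 change of 0.18. That fit holds a library with a larger spread, shared by all groups.

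Leaving out each library in turn, the count of genes called ran from 16 to 20 for the LX-2 conditions in shATF4 and from 19 to 22 in shCtrl cells, from 5 to 10 for the LX-2 hairpin comparison and from 2 to 5 for the LX-2 differences between hairpins, the 5 without shCtrl AA_Dep replicate 1. In HMLE the counts ran from 17 to 20 for the conditions in shATF4 cells, were 19 throughout in shCtrl cells, and ran from 18 to 21 for the hairpin comparison and from 9 to 14 for the differences between hairpins; between the lines they ran from 20 to 22. Leaving out the single library of a group gave no count for comparisons with that group. In all, 101 calls were kept under every alternative run.

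Replicate numbers were not shown to pair the libraries: deviations of same-numbered libraries had correlations of -0.173 to 0.144 among LX-2 groups and of -0.0177 to 0.101 among HMLE groups. With the replicate block 138 calls were kept, and the counts were 18 and 20 for the LX-2 conditions in shATF4 and shCtrl cells, 7 for the LX-2 hairpin comparison, 2 for the LX-2 differences, 20 and 19 for the HMLE conditions, 19 for the HMLE hairpin comparison, 12 for the HMLE differences and 21 between lines.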
